A study of Mus musculus with 12 samples.

Results

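Clone 4 is a line of mouse embryonic stem cells whose GFP-positive cells were set against its GFP-negative cells by RNA sequencing, with 3 libraries of each. These 6 libraries, out of 12 in the series, are all those that the labels give to clone 4, and they were paired by replicate number. Per the labels, the clone came from mice with a floxed Sphk1 (Sphk1fl/fl) and no Sphk2 (Sphk2-/-), so both gates lack Sphk2, and all cells received 6 uM 4-hydroxytamoxifen for 48 hours. They were then sorted for Cre-GFP. GFP-negative cells are labelled as keeping the floxed Sphk1 alleles, and GFP-positive cells as Sphk1-/- Sphk2-/-. Every value is from a single clone, and both gates were treated, so the gate, with the Sphk1 genotype labelled for it, and passage are the labelled differences.

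Sphingosine kinases phosphorylate sphingosine to sphingosine 1-phosphate, a lipid that signals through a family of G protein-coupled receptors and is broken down by a lyase. Sphk1 is mainly cytosolic, and Sphk2 is found largely in the nucleus and on internal membranes. Embryonic stem cells depend on transcription factors such as those encoded by Pou5f1, Sox2 and Nanog, and a small, changing fraction of them switches on genes of the embryo at the 2-cell stage, among them the Zscan4 family.

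The libraries held 19196623 to 34258395 counts, and levels are given as CPM, the count divided by that total and scaled to the same sum in every library. Labelled passages were 11 for both libraries of pair 1, 13 and 14 for pair 2, and 15 and 16 for pair 3, with the GFP-positive library the later. Passage and gate cannot be told apart in pairs 2 and 3, and nothing in the labels says whether replicates were separate cultures or sorts, so p-values reflect how much these libraries vary. Mitochondrial genes took a larger share of counts in the GFP-positive library of every pair (0.851% against 0.594%, 0.896% against 0.845%, and 2.21% against 1.43%). The labelled cell type was checked against its markers, and the summed level of 10 defining genes ran from 6125 to 9730 CPM without GFP and from 5921 to 7560 CPM with it, with Pou5f1 at 944 CPM or more in each. Among blood cell markers, Ptprc was at 0 to 0.146 CPM and Itgam and Csf1r at 2.03 CPM or less, but Cd68 was at 23.7 to 87 CPM. Among endothelial markers, Cdh5 was at 0.0876 to 1.06 CPM, but Pecam1 was at 103 to 251, Tek at 9.03 to 29.5 and Tie1 at 2.39 to 122 CPM. Ptprc and Cdh5 alone therefore do not describe their sets.

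Sphk1 (mm10 chromosome 11, 116530925 to 116536674), the gene labelled as deleted, stood at 1.96, 3.02 and 1.78 CPM in GFP-negative replicates 1 to 3 and at 2.02, 1.07 and 0.701 CPM in GFP-positive ones. It was lower in GFP-positive cells of pairs 2 and 3 and level in pair 1, so the groups overlapped. The log2 change of -0.90 (SE 0.37) did not pass the test (adjusted p = 0.356), but without replicate 1 it was -1.37 and passed (adjusted p = 0.00349). That fit leaves out the only pair that was level, and it called 569 genes against 150 with all pairs. Its pass therefore does not settle whether Sphk1 fell. At 22 to 58 reads per library the counting error is large. Sphk2 (chromosome 7, 45709467 to 45718002) was at 1.19, 3.18 and 6.11 CPM in GFP-negative and 2.45, 1.89 and 7.41 CPM in GFP-positive replicates, a change of 0.20 (SE 0.32, adjusted p = 0.79) whose sign turned without replicate 1 (-0.022). Which exons were removed is not in the labels, and gene totals also count the exons that remain, so these levels do not check the genotypes.

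None of the 5 genes for sphingosine 1-phosphate receptors was called by edgeR at an adjusted p under 0.05, the threshold used throughout, and 1 was lower at an unadjusted p under 0.05. S1pr2, the most abundant by counts, was at 85.4, 49.7 and 75.5 CPM in GFP-negative and 75, 44 and 71.1 CPM in GFP-positive replicates (log2 change -0.14, SE 0.12). S1pr3 had 4.1, 7.08 and 3.6 CPM against 2.45, 3.49 and 1.4 CPM. Its groups did not overlap, yet its change of -1.03 (SE 0.24) missed the threshold with all pairs (adjusted p = 0.115). It passed without replicate 1 (-1.12, adjusted p = 0.000353), in the fit that called 569 genes. S1pr1, S1pr4 and S1pr5 stayed under 4 CPM in every library with overlapping groups. Among 44 tested genes of sphingolipid metabolism 0 were called by edgeR, DESeq2 or limma-voom, with 2 higher and 1 lower at an unadjusted p under 0.05. Sgms1, a sphingomyelin synthase gene, changed by 0.41 (SE 0.14, adjusted p = 0.309), and Col4a3bp, which encodes the ceramide transfer protein, by 0.32 (SE 0.13, adjusted p = 0.356).

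Across the transcriptome, the genes called higher in GFP-positive clone 4 cells included 14 of 21 tested 2-cell-stage genes, Esr1 and 5 of 35 mitotic genes. Those called lower included 16 of 29 fibroblast markers and fewer members of other lists, such as 5 of 18 contractile and 4 of 36 interferon response genes. Within pairs, edgeR called 150 of 14504 genes tested (1.03%). Of these, 53 were higher (0.365%) and 97 lower (0.669%) in GFP-positive cells, and all moved the same way in each of the 3 pairs. At an unadjusted p under 0.05, 1056 genes were higher (7.28%) and 859 lower (5.92%). The calls rest on the pairing: with the replicate numbers left out edgeR gave 0 calls and 164 genes at an unadjusted p under 0.05, although all 150 kept their sign. Fitted together with clone 10, the same contrast gave 18 calls among 15179 genes (0.119%), 16 of them among the 150. With only 2 residual degrees of freedom the count also moved with single pairs, to 569, 836 and 217 without replicates 1, 2 and 3, which kept 146, 138 and 131 of the 150.

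**Figure D1:**
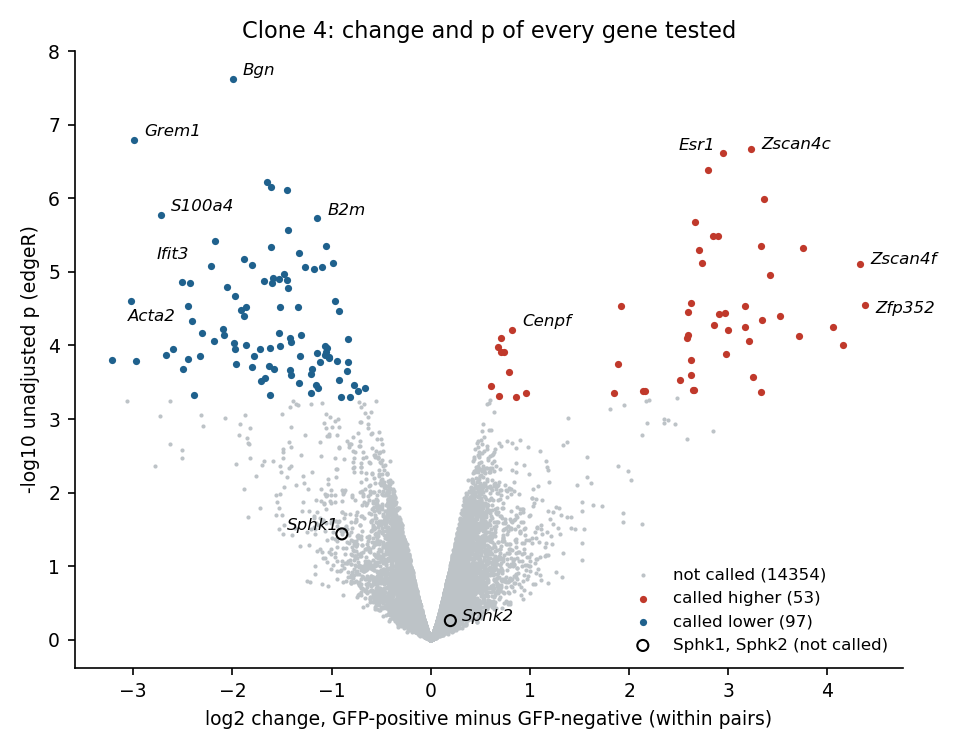
Each point is a gene tested in clone 4, with its log2 change within pairs on the x axis and the -log10 of its unadjusted p on the y axis. Red points are the 53 genes called higher and blue points the 97 called lower, and open circles mark Sphk1 and Sphk2, which were not called. The rises fall into a set under a log2 change of 1 and a set from 1.85 to 4.38.

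The 2 directions differed in level and in how even they were across pairs. The median level of the genes called higher was 1.09 CPM without GFP and 10.8 CPM with it, although mitotic genes among them were abundant. Their rise was largest in pair 1 for 43 of 53, and the median rise per pair was 3.27, 2.17 and 1.54 on the log2 scale for pairs 1 to 3. The genes called lower had medians of 14.7 and 4.85 CPM, and their median change was nearly the same in each pair, at -1.55, -1.50 and -1.46. Even so, the change was largest in pair 1 for 51 of these 97, and the share over all genes tested was not computed. Groups did not overlap for 30 of the 53 and 44 of the 97, whereas among all genes tested every GFP-positive library lay above every GFP-negative one for 199 (1.37%) and below for 289 (1.99%). Rises over 1 on the log2 scale numbered 43, and falls of that size 84.

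The largest rises were in genes of the 2-cell-stage programme. Of 34 such genes listed, 29 were in the count table, 21 had enough reads to test and 14 were called, all higher. The median log2 change of the 21 was 2.85, against -0.002 over all genes tested. For 9 of the 21 all 3 libraries met the level of the count filter only in the GFP-positive gate, which favours a rise. Zscan4f, Zfp352 and Tcstv1 were among these 9. Neither the count nor the median therefore supports a direction on its own. Without replicates 1, 2 and 3 the calls numbered 14, 15 and 19, and with at least 2 CPM required in 3 libraries they fell to 9.

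Zscan4 genes encode zinc finger proteins with a SCAN domain that are known for telomere lengthening in embryonic stem cells. The promoter windows of Zscan4c, Zscan4d and Zscan4f are shown because these copies rose together and are nearly the same sequence. Each line holds 200 bases from 150 before to 50 after the annotated start of Zscan4c or the matching stretch of the other copy, from RefSeq on GRCm38.p6, 5′ to 3′ on the gene's strand (chr7:11005572-11005771, plus strand, chr7:11166133-11166332, minus strand, and chr7:11397765-11397964, plus strand). Capitals mark the bases at which the copies differ.
Zscan4c: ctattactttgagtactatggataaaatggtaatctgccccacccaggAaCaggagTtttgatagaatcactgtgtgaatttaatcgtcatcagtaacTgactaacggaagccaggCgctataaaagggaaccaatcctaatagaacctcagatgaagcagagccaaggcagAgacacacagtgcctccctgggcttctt
Zscan4d: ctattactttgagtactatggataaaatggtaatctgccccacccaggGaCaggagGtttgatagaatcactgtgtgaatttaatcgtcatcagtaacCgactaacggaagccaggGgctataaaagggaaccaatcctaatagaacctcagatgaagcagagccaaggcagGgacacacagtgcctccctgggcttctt
Zscan4f: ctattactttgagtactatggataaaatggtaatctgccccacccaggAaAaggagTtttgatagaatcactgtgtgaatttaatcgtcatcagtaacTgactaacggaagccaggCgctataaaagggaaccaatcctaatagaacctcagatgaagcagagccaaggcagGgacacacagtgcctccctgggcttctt
Of the 200 positions 194 were identical in all of them. The transcribed parts are alike too. Of the distinct 50-base stretches of the transcript, 85.5% for Zscan4c, 49.6% for Zscan4d and 95.3% for Zscan4f also occur in transcripts of other genes. How reads were split among copies is therefore uncertain.

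Zscan4c was at 3.24, 0.781 and 0.688 CPM in GFP-negative and 41.9, 6.68 and 4.06 CPM in GFP-positive replicates 1 to 3. All GFP-positive libraries lay above all GFP-negative ones, with the highest level and the largest step in replicate 1. The log2 change was 3.23 (SE 0.24, adjusted p = 0.000888). Zscan4d rose from 3.33, 0.781 and 1.21 to 61.4, 5.62 and 6.95 CPM (3.37, SE 0.30), and Zscan4f from 0.501, 0.0521 and 0.364 to 19, 2.76 and 2.1 CPM (4.33, SE 0.49). Zscan4e and Zscan4b also rose, by 3.76 (SE 0.40) and 3.33 (SE 0.63). Those 5 were all the tested genes on chromosome 7 between 10900740 and 11402741, a span drawn from the first to the last of them. The call of Zscan4b did not hold without replicate 2 (adjusted p = 0.156) or without the count filter (0.0808).

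Outside the Zscan4 family, Zfp352, a zinc finger gene of the early embryo, rose from 0.228, 0.208 and 0.0405 to 10.8, 1.11 and 0.73 CPM (4.38, SE 0.58). Usp17la and Usp17le, deubiquitinase genes of a tandem family on the same chromosome, rose by 2.99 (SE 0.44) and 2.91 (SE 0.40). The groups did not overlap for either gene. Tcstv1 went from 2.1, 0.625 and 0.364 to 25.4, 4.5 and 0.671 CPM (2.85, SE 0.41). Its replicate 3 in GFP-positive cells was below replicate 1 in GFP-negative ones, so the rise is visible only within pairs. BC080695, a PRAME family gene, rose by 3.52 (SE 0.49), but not past the threshold without replicate 2 (adjusted p = 0.0991). Another entry named BC080695 had no reads in clone 4. AA792892 rose by 3.25 (SE 0.57), likewise lost without replicate 2 (0.154) and without the filter (0.0802). Tmem92, which encodes a membrane protein, rose from 7.11, 1.41 and 0.971 to 68.8, 7.89 and 3.15 CPM (2.66, SE 0.26, adjusted p = 0.00257). Only 2.01% of the 50-base stretches of its transcript are shared, against 0 for Esr1 and 0.0606% for Lmx1a, so few of their reads could be shared with copies.

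Some genes called higher lay near one another in tandem families. A neighbour called higher lay within 1 Mb for 29 of the 53, and a neighbour called lower for 15 of the 97. The share over all genes tested was not computed, so these counts do not show clustering beyond the background. Each span below was drawn from the first to the last gene of a run called higher. Its ends are therefore calls, and flanking genes are left out, so the shares called within spans only describe them. On chromosome 12, 10 of the 11 genes tested between 87514316 and 88321481 were called higher, most of them predicted genes. On chromosome 4 all 5 tested genes between 143551700 and 144364419 rose, among them BC080695 and Pramef6. On chromosome 13, Tcstv1 was among 4 of 5 between 119893467 and 120173696, and on chromosome 7, Usp17le, Usp17lb and Usp17la made up 3 of 3 between 104768160 and 104862667. Members of such families can share reads.

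Esr1 (chromosome 10, 4611593 to 5005614), which encodes estrogen receptor alpha, rose in each pair. It was at 4.01, 11.8 and 2.91 CPM in GFP-negative and 40.1, 56.5 and 29.9 CPM in GFP-positive replicates. The groups did not overlap, and the step was 3.22, 2.27 and 3.42 on the log2 scale in pairs 1 to 3. The fitted change was 2.95 (SE 0.22, adjusted p = 0.000888). Gene totals cannot tell the cell's own Esr1 transcript from one made by an introduced construct, and the labels do not give the structure of the Cre-GFP. Of 20 tested estrogen receptors and targets, Esr1 alone was called higher and 2 were lower, Igfbp4 and Cxcl12. For 3 of the 20, Cxcl12 among them, all 3 libraries met the level of the count filter only in the GFP-negative gate. For 1 this held only in the GFP-positive gate, so the counts support no direction on their own. Igfbp4, a binding protein of insulin-like growth factors, fell from 112, 68.3 and 19.5 to 31.2, 21.9 and 6.92 CPM (-1.66, SE 0.14). Cxcl12, a chemokine gene, fell from 1.82, 11.2 and 5.46 to 0.337, 4.26 and 1.52 CPM (-1.73, SE 0.27). Without replicate 1, 4 of the list were lower.

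Other rises of more than 1 on the log2 scale were in genes of varied roles. H2-M10.4, a nonclassical class I gene, rose by 3.34 (SE 0.47), from 0.912, 0.573 and 0.243 to 21.5, 2.61 and 1.11 CPM. Lmx1a, a homeobox gene of the developing midbrain, rose by 2.66 (SE 0.50), from 0.41, 0.886 and 0.445 to 8.56, 3.78 and 1.14 CPM. Neither gene's groups overlapped. Both genes met the level of the count filter in all 3 libraries only in the GFP-positive gate, which favours a rise. Fgf1, a fibroblast growth factor gene, was the only member of 21 tested genes of FGF signalling to be called (2.14, SE 0.40, adjusted p = 0.0437), and it missed the threshold with the filter at 2 CPM (0.0717). Tie1, an endothelial receptor kinase gene, stood at 5.38, 3.65 and 2.39 CPM against 122, 9 and 6.48 CPM without overlap, but its change of 2.58 (SE 0.57) was not called (adjusted p = 0.121). Of 10 tested endothelial markers edgeR and DESeq2 called 0 and limma-voom 1, with 3 higher and 1 lower at an unadjusted p under 0.05. The sum of 4 defining ones, mostly Pecam1, was higher with GFP than without it in every pair, at 338.9 against 149.3, 287.8 against 277, and 165.6 against 125.5 CPM, and its part in other rises was not tested. Tek, a receptor kinase gene among the 4, was at 9.03, 25.9 and 20.3 against 29.5, 27.5 and 29.2 CPM (0.76, adjusted p = 0.285).

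**Figure D2:**
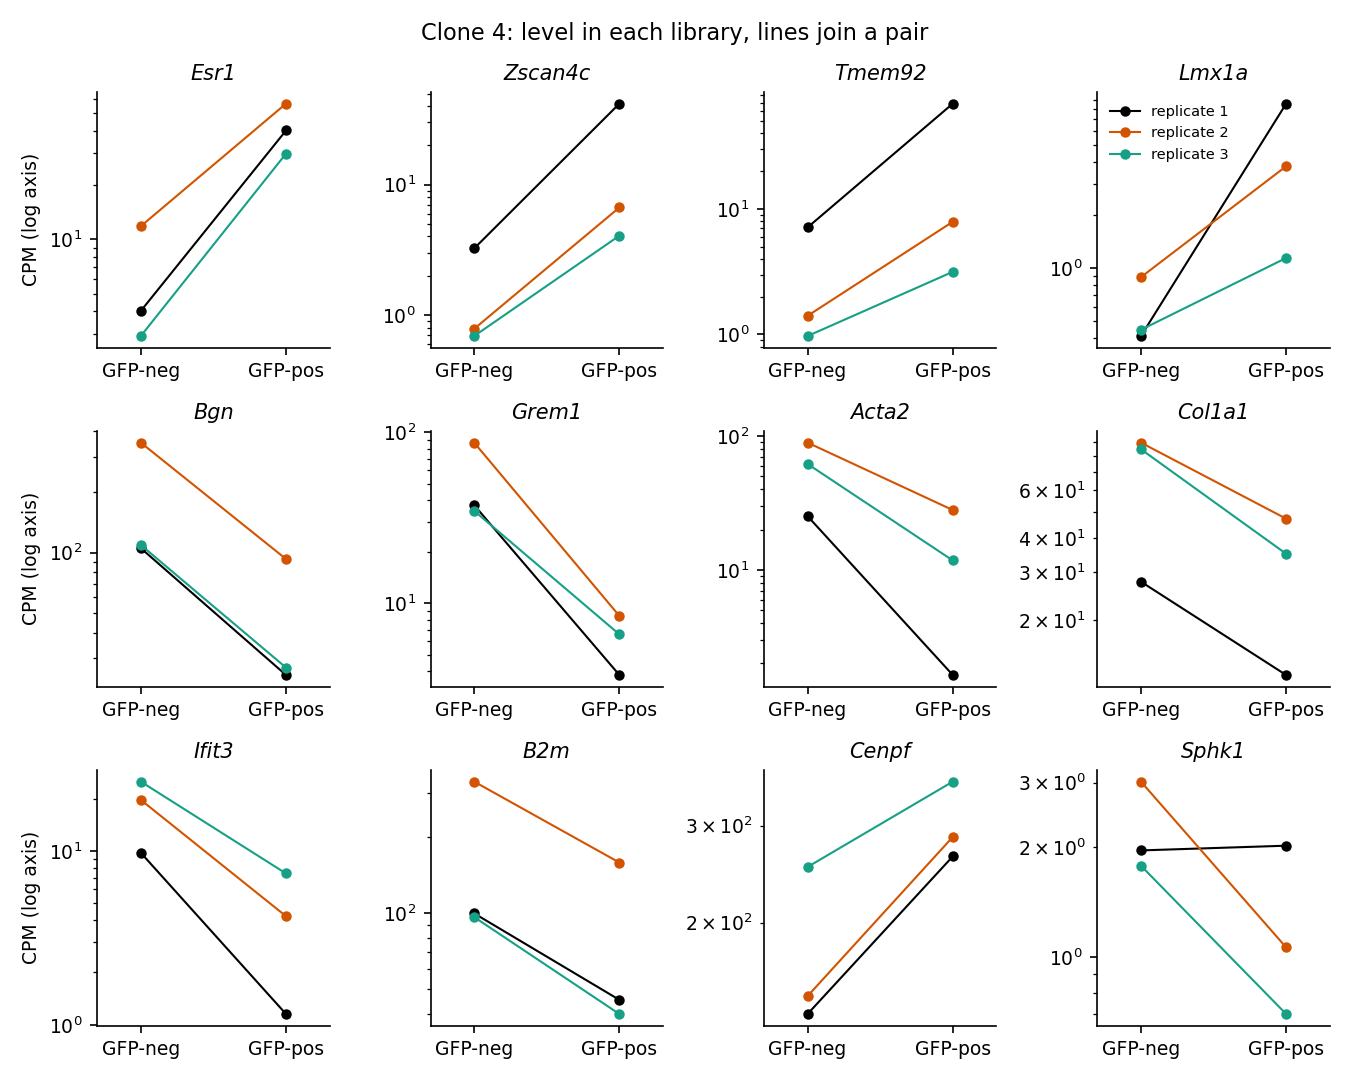
Each panel shows a gene's level in CPM on a log axis in the GFP-negative and GFP-positive library of each clone 4 replicate, with a line joining the pair. Lines rise in all pairs for Esr1, Zscan4c, Tmem92, Lmx1a and Cenpf and fall in all pairs for Bgn, Grem1, Acta2, Col1a1, Ifit3 and B2m, whereas Sphk1 is level in replicate 1 (1.96 and 2.02 CPM) and is lower in the GFP-positive library of the others.

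A second, smaller kind of rise was seen in genes of mitosis. Of the 53 genes called higher, 10 rose by less than 1 on the log2 scale, and 5 of these belong to the list of G2/M and mitosis genes, where 5 of 35 tested were called, all higher. Cenpf, a kinetochore protein gene, rose from 136, 147 and 252 to 264, 286 and 361 CPM (0.82, SE 0.12, adjusted p = 0.0133), with every GFP-positive library above every GFP-negative one. Top2a, which encodes the topoisomerase that separates sister chromatids, rose from 803, 712 and 1061 to 1314, 1318 and 1414 CPM (0.68, SE 0.13). Kif20b, a mitotic kinesin gene, went up by 0.71 (SE 0.11), Ect2, an exchange factor gene of cytokinesis, by 0.68 (SE 0.11), and Hmmr, a spindle protein gene, by 0.61 (SE 0.11). Top2a was named after its values were seen.

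Across the mitosis list 33 of 35 changes were positive, with a median of 0.35 and 20 higher at an unadjusted p under 0.05. The count of calls was 20 without replicate 1 and 1 without replicate 3, and without replicate 3 Kif20b, Ect2 and Hmmr missed the threshold (adjusted p = 0.0918, 0.0876 and 0.213). Of 30 tested genes of G1/S and DNA replication 0 were called by edgeR, DESeq2 or limma-voom, their median was -0.006, and 1 had an unadjusted p under 0.05. Pola1, a DNA polymerase gene, changed by 0.32 (SE 0.12, adjusted p = 0.339) and Rrm2, a ribonucleotide reductase gene, by 0.23 (SE 0.13, adjusted p = 0.442). Sycp1, a gene of the meiotic synaptonemal complex, was the only germline gene called of 30 tested (0.96, SE 0.18, adjusted p = 0.0446), and its call did not hold without replicate 3 (0.152) or with the filter at 2 CPM (0.0619).

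Genes of fibroblasts and their matrix made up the broadest set of falls. Of 30 fibroblast markers, 29 were tested and 16 were called, all lower, with a median of -1.18 over the 29. The count and median support no direction on their own. For 4 of the 29 all 3 libraries met the level of the count filter only in the GFP-negative gate, which favours a fall. Dcn and S100a4 were among these 4. In the contractile, inhibitor, annexin, interferon and class I lists described next, 1 to 3 tested members were of that kind. Actg2, Mmp3, S100a4 and Ifi44 were among those. Without replicates 1, 2 and 3 the numbers called were 23, 16 and 16. In bulk libraries, fewer cells of a type and less RNA per cell cannot be told apart. In each pair the GFP-positive library had the lower sum of 12 defining fibroblast markers, at 66.6 against 98.7, 200.1 against 374.5 and 99.5 against 238.8 CPM, and 7 of the 12 were called lower. Lum, a matrix proteoglycan gene among the 12, was at 0 to 0.260 CPM, and Pdgfrb, a receptor gene of mesenchymal cells, at 8.98, 39.1 and 5.3 against 11.1, 42.1 and 4.9 CPM. The sum over the whole list, in which a few abundant genes weigh most, was 2153 against 2068, 2875 against 4235 and 1835 against 2370 CPM, and so was not lower in pair 1.

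Among proteoglycan and matrix genes, Bgn, which encodes biglycan, had the smallest p of all genes tested in this fit. It fell from 105, 352 and 109 to 24.7, 93 and 26.9 CPM, without overlap and by nearly the same factor in each pair (log2 change -1.998, SE 0.12, adjusted p = 0.000345). Dcn, which encodes decorin, fell from 1.46, 3.49 and 5.83 to 0.0962, 1.02 and 1.11 CPM (-2.32, SE 0.38). Tnc, the gene for tenascin C, fell from 16.1, 99.3 and 134 to 4.95, 38.6 and 37.6 CPM (-1.61, SE 0.14). The levels of Tnc differed more between replicates than between gates, and the fall was seen within each pair. Mgp, a matrix protein gene that restrains calcification, fell from 21.3, 49.2 and 9.02 to 1.54, 15.6 and 1.9 CPM (-2.41, SE 0.34), although not past the threshold without the filter on low counts (adjusted p = 0.0718). Bgn and Mgp were not on the list.

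Of the collagen genes on the list, Col1a1, Col1a2, Col3a1, Col5a2 and Col6a3 were called lower, whereas Col5a1, Col6a1 and Col6a2 were not, with changes of 0.07, -1.34 and -0.99. Col1a1, for a chain of type I collagen, went from 27.7, 89.4 and 84.5 to 12.6, 47.1 and 35 CPM (-1.09, SE 0.13), and Col1a2, for the other chain, from 9.76, 86.4 and 49.1 to 4.52, 41.6 and 15.5 CPM (-1.27, SE 0.15). For both genes the groups overlapped and every pair fell. S100a4, a calcium-binding protein gene used as a fibroblast marker, had a larger fall, from 4.65, 15 and 8.58 to 0.433, 2.71 and 1.34 CPM (-2.72, SE 0.26, adjusted p = 0.00242), with no overlap. However, 56.3% of the 50-base stretches of its transcript also occur in another gene. Twist2, a transcription factor gene of mesenchymal cells, fell by 2.09 on the log2 scale (SE 0.30). Fn1, Sparc and Fbn1, further matrix genes of the list, had changes of -0.13, 0.06 and -0.14 that were not called. Vim, which encodes the intermediate filament vimentin, was named after its values were seen. It fell from 179, 269 and 212 to 43.5, 84.4 and 99.6 CPM (-1.59, SE 0.19).

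Of 18 contractile genes tested, 5 were called, all lower, and the median was -0.57. Without replicate 1 the number was 11. Acta2, which encodes smooth muscle actin, fell from 25.3, 89.5 and 62 to 1.63, 28 and 11.8 CPM (-2.45, SE 0.33), most steeply in replicate 1, where 1.63 CPM remained. That call did not hold without the filter on low counts (adjusted p = 0.136). Actg2, the gene of a second smooth muscle actin, fell from 2.46, 6.36 and 4.21 to 0.24, 1.84 and 0.788 CPM (-2.31, SE 0.34). Tagln, an actin-binding protein gene, fell from 41.6, 65.8 and 45.2 to 20.3, 19.3 and 10.8 CPM (-1.61, SE 0.17), and Myl9, a myosin light chain gene, by 1.41 on the log2 scale (SE 0.22). The summed level of the contractile list was 2172 against 1740 CPM in pair 1, higher in GFP-positive cells, and lower in pairs 2 and 3, and 14 of its 18 tested members had negative changes.

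Among enzymes that cut the matrix and their inhibitors, 3 of 14 tested were lower, and 7 without replicate 1. Timp2, an inhibitor gene, fell from 50.3, 139 and 57.7 to 19.9, 55.6 and 17.6 CPM (-1.45, SE 0.13, adjusted p = 0.00139). Timp1 fell from 108, 123 and 74.5 to 57.6, 62.6 and 34.2 CPM (-0.99, SE 0.11), and the change was within 0.1 of that value in every pair. Mmp3, the gene of stromelysin 1, fell from 3.15, 7.08 and 2.43 to 0.144, 1.98 and 0.321 CPM (-2.67, SE 0.43). Mmp13, a collagenase gene, changed by -1.82 (SE 0.40) and was not called (adjusted p = 0.0953).

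In the annexin and S100 families, calcium-dependent membrane-binding and calcium-binding proteins, 4 of 16 tested were lower, and 7 without replicate 1. Anxa2 fell from 326, 108 and 67.6 to 170, 54.5 and 27.5 CPM (-1.06, SE 0.11), close to the same step in each pair although the level differed several-fold between replicates. Anxa1 fell by 1.203 on the log2 scale (SE 0.23), a call that ended without replicate 2 (adjusted p = 0.0879), without the filter (0.0897) and with the filter at 2 CPM (0.0725). Anxa5 fell by 0.83 (SE 0.14), and this call ended without replicate 3 (0.0969). In every pair the sum of the 12 defining fibroblast markers was lower with GFP, as were the sums of the inhibitor and metalloproteinase list and of the annexin and S100 list, and its part in these falls was not tested. The contractile sum and the sum of the whole fibroblast list were higher in pair 1.

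**Figure D3:**
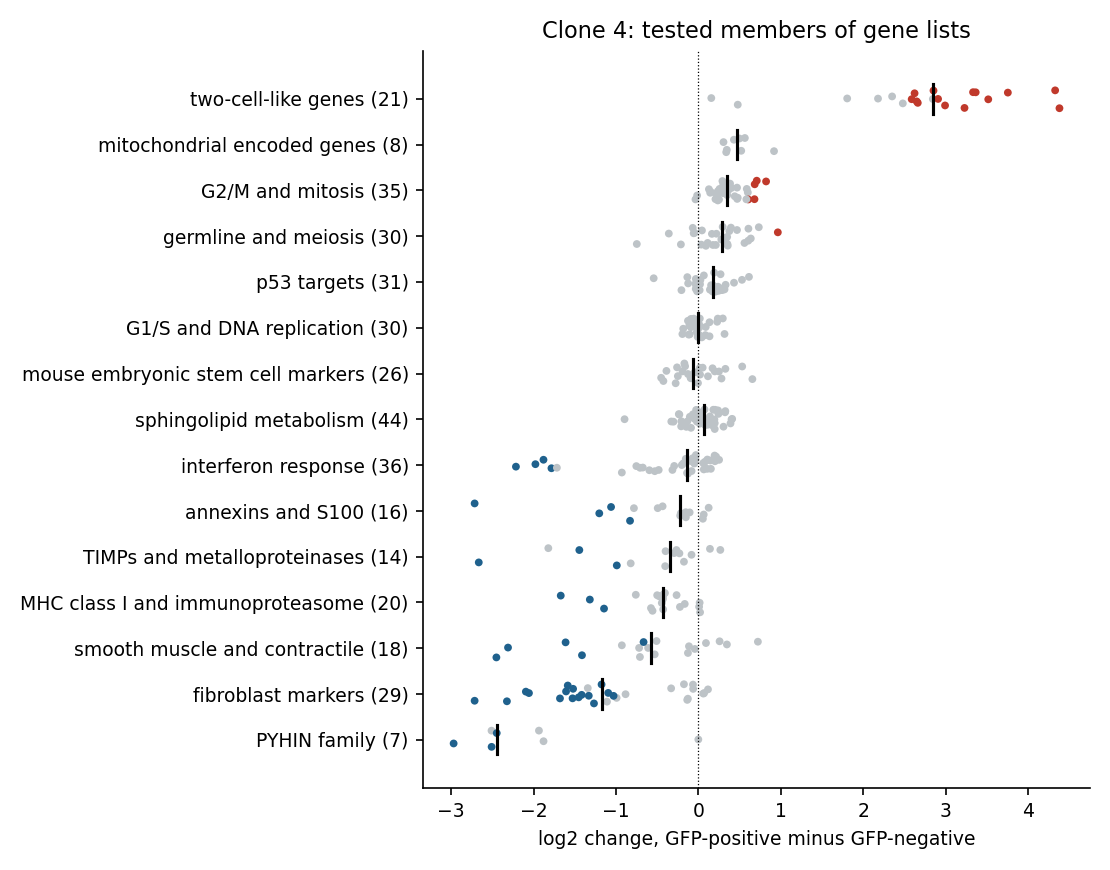
Each point is a tested member of a gene list, placed by its log2 change in clone 4, with the number tested in parentheses. Red points were called higher and blue points lower, black bars are the list medians, and the dotted line is the median of all genes tested (-0.002). Medians are 2.85 for the 2-cell-stage list, -2.45 for the PYHIN list and -1.18 for the fibroblast list. Of their points 9 of 21, 3 of 7 and 4 of 29 met the level of the count filter in all libraries of a single gate only. The medians are therefore a description and support no direction.

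Some secreted regulators of the BMP and TGF-beta pathways were among the falls. Grem1, which encodes gremlin 1, an antagonist that binds BMPs outside the cell, went from 37.5, 87.2 and 34.8 to 3.8, 8.42 and 6.57 CPM (-2.99, SE 0.22, adjusted p = 0.000888). All GFP-positive libraries lay far below all GFP-negative ones. The call held without any single pair but not without the replicate block or in the fit of all 12 libraries. Inhba, for the activin A subunit, fell from 3.37, 9.32 and 8.46 to 1.11, 1.69 and 2.31 CPM (-1.97, SE 0.25), and Tgfb3, for a TGF-beta ligand, from 2.51, 21.4 and 6.6 to 0.817, 6.15 and 1.63 CPM (-1.81, SE 0.21). Of 33 tested members of these pathways 4 were called, all lower, and 7 were lower without replicate 1. The antagonist genes Chrd, Nog and Fst had changes of -0.14, -0.19 and -0.58 that were not called. Nodal and Lefty1, a ligand gene and its feedback inhibitor gene in embryonic stem cells, changed by 0.35 (SE 0.11, adjusted p = 0.301) and -0.39 (SE 0.12, adjusted p = 0.282). Id1 and Id3, targets of BMP signalling, had changes of -0.02 and -0.02.

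Further large falls were in genes of other kinds. Prl2c3, a gene of the prolactin family known from placenta, fell from 4.6, 2.71 and 3.4 to 0.337, 0.242 and 0.671 CPM (-3.02, SE 0.39). Since 78.6% of the 50-base stretches of its transcript are shared with other genes, its copies could not be told apart with certainty. Tm4sf1, a tetraspanin-like membrane protein gene, fell from 5.97, 10.8 and 5.58 to 1.25, 2.47 and 1.2 CPM (-2.18, SE 0.23). Neither gene's groups overlapped. Ptn, a growth factor gene, was at 0.274, 11.2 and 3.04 against 0.192, 1.16 and 0.613 CPM (-2.50, SE 0.43), with little signal in replicate 1, and its call ended without replicate 2 (adjusted p = 0.116). Mcpt8, a mast cell and basophil protease gene, fell from 3.78, 3.59 and 3.32 to 0.192, 0.775 and 1.08 CPM (-2.39, SE 0.46), but with the filter at 2 CPM its adjusted p was 0.0562. Adm, the adrenomedullin gene, fell by 1.16 on the log2 scale (SE 0.21), with an adjusted p of 0.0513 under that filter. Hist1h2bc, a histone gene, fell by 1.19 (SE 0.20), the only call among 29 histone genes tested. Prl2c3 and Mcpt8 met the level of the main count filter in all 3 libraries only in the GFP-negative gate, which favours a fall.

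Interferon-inducible and antigen presentation genes fell in part. Interferons signal through STAT proteins to elements in the promoters of their target genes, whose core repeats the letters GAAA with 2 bases between. The promoter windows of Ifit3 and B2m, both called lower, are shown because they hold it (GAAA, any 2 bases, GAAA, on either strand, marked in capitals). Each has 300 bases, from 250 before to 50 after the annotated start, from RefSeq on GRCm38.p6, 5′ to 3′ (chr19:34583279-34583578, plus strand, and chr2:122147437-122147736, plus strand).
Ifit3: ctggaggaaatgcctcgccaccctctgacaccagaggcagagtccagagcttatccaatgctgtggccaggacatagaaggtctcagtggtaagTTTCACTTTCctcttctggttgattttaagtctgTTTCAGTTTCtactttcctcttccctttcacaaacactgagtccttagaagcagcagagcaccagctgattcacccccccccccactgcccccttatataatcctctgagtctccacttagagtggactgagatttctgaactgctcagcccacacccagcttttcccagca
B2m: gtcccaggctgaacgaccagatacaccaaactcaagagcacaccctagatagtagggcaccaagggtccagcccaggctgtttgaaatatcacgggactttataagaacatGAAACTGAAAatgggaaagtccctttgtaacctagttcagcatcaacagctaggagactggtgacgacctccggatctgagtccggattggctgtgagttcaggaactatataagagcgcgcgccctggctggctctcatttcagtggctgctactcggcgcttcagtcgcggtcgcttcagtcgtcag
Ifit3 held 2 matches and B2m 1. The letters occurred in 3.44% of all 32851 windows, in 5.06% of the 79 windows of genes called lower (65 of the 97 genes had a window), in 10.7% of the 28 windows of genes called higher (25 of the 53), and in 40.4% of the 57 windows of tested interferon, PYHIN and antigen presentation genes. The matches in windows of genes called lower were in B2m, H2-T23, Ifit3 and Tm4sf1.

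Ifit3, an antiviral protein gene, fell from 9.76, 19.6 and 25 to 1.15, 4.21 and 7.41 CPM (-2.21, SE 0.25, adjusted p = 0.00413), with no overlap. However, 51.2% of the 50-base stretches of its transcript are shared with another gene. Ifi44 fell from 1.46, 7.76 and 6.52 to 0.337, 2.23 and 1.69 CPM (-1.88, SE 0.26). The chemokine genes Ccl2 and Ccl5 fell by 1.78 (SE 0.29) and 1.98 (SE 0.31) on the log2 scale. These were the 4 called of 36 tested interferon response genes, and 8 were lower without replicate 1. The list median was only -0.13, and the transcription factor genes Stat2 and Irf9 had changes of 0.06 and -0.07 that were not called.

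The PYHIN family, interferon-inducible proteins that sense DNA, had 7 tested genes with a median of -2.45, of which 3 were called lower. For 3 of the 7 all 3 libraries met the level of the count filter only in the GFP-negative gate, which favours a fall. Mnda was among these 3. The median therefore supports no direction on its own. Ifi204 fell from 3.01, 9.9 and 6.31 to 0.721, 1.02 and 1.34 CPM (-2.51, SE 0.30), and Mnda from 1.19, 2.34 and 1.86 to 0.24, 0.0968 and 0.292 CPM (-2.97, SE 0.49), both without overlap. Pyhin1 was at 0.319, 5.63 and 4.17 against 0, 0.871 and 0.934 CPM (-2.45, SE 0.40). Of the 50-base stretches of their transcripts, 72.8% for Mnda, 35.1% for Pyhin1 and 30.2% for Ifi204 also occur in other genes. Their reads may therefore be shared with copies. Ifi203 changed by -1.94 (SE 0.44) and was not called (adjusted p = 0.112), and Aim2, the receptor gene of an inflammasome, had no change to 2 decimals (-0.00). These are low levels, and the count was 6 without replicate 1, 5 without replicate 3 and 1 with the filter at 2 CPM.

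Of 20 tested genes of class I presentation and the immunoproteasome 3 were lower, with a median of -0.43 and 12 lower at an unadjusted p under 0.05. B2m, the light chain shared by class I molecules, fell from 99.97, 332 and 96.7 to 45.4, 159 and 39.9 CPM (-1.15, SE 0.11, adjusted p = 0.00247). Both libraries of replicate 2 stood above all the others, so the groups overlapped, and the fall was close to the same in each pair. Psmb8, an immunoproteasome subunit gene, fell from 7.16, 8.07 and 10.3 to 2.45, 4.12 and 3.65 CPM (-1.32, SE 0.21), without overlap. H2-T23, a nonclassical class I gene, fell by 1.67 on the log2 scale (SE 0.30), but not past the threshold without replicate 2 (adjusted p = 0.0534) or replicate 3 (0.0728). H2-D1, a classical class I gene, changed by -0.56 (SE 0.11, adjusted p = 0.0527). The list had 9 members lower without replicate 1 and 7 without replicate 2. In each pair the summed class I list was lower with GFP, as was the sum of the 12 defining fibroblast markers, whose part was not tested. The summed interferon response list was 1645 against 1469 CPM in pair 1, higher in GFP-positive cells.

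Pluripotency genes were not among the calls. Of 26 markers of mouse embryonic stem cells edgeR called 0, with 2 higher and 1 lower at an unadjusted p under 0.05 and a median of -0.07, and DESeq2 called 1 higher. Without replicate 2, edgeR called 2 higher and 1 lower. Pou5f1 was at 1795, 980 and 1339 CPM in GFP-negative and 1479, 944 and 1262 CPM in GFP-positive replicates, and Nanog at 587, 314 and 651 against 462, 342 and 769 CPM, so the gates differed less than the replicates. The smallest p were those of Fbxo15 (0.53, SE 0.14, adjusted p = 0.2), a target gene of Pou5f1, Rex2 (0.65, SE 0.23, adjusted p = 0.32) and Utf1 (-0.45, SE 0.18, adjusted p = 0.345), a chromatin factor gene. Repressors and activators of the 2-cell state had 0 calls of 31 by edgeR, DESeq2 and limma-voom with 6 higher at an unadjusted p under 0.05. Among them were Nelfa (0.48, SE 0.17, adjusted p = 0.32), which stood at 155, 116 and 124 against 332, 145 and 122 CPM, and Rif1 (0.58, SE 0.19, adjusted p = 0.307).

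**Figure D4:**
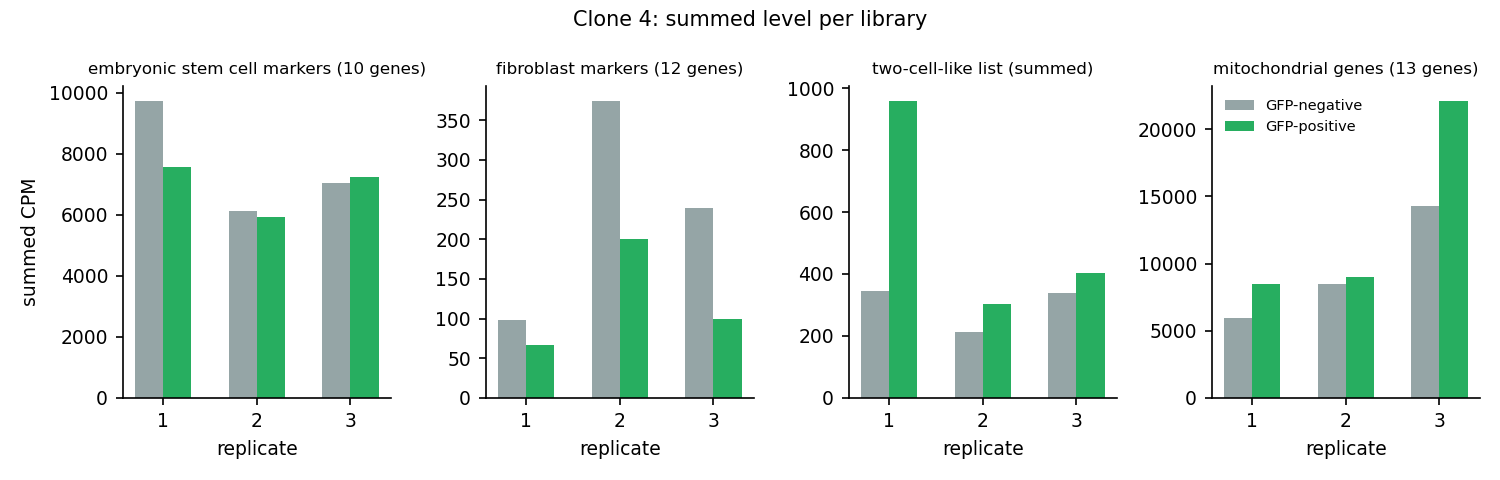
Bars give the summed CPM of each gene set in the GFP-negative (grey) and GFP-positive (green) library of clone 4 replicates 1 to 3, on axes that start at 0. The 12 defining fibroblast markers, which are only some of the listed ones, are lower in the GFP-positive library of every pair. The sums of the 2-cell-stage and mitochondrial genes are higher there in every pair. The 2-cell-stage sum includes untested genes and abundant genes that were not called, such as Nelfa. The embryonic stem cell markers are lower in pairs 1 and 2 and higher in pair 3.

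The 8 tested genes encoded by mitochondrial DNA all had positive changes, with a median of 0.46 and all 8 at an unadjusted p under 0.05, but edgeR called 0 and DESeq2 2. mt-Nd2, a subunit gene of respiratory complex I, stood at 192, 79.4 and 571 against 253, 93.7 and 1143 CPM (0.56, SE 0.17, adjusted p = 0.262). Of 31 p53 target genes edgeR called 0 and DESeq2 2, with 5 higher at an unadjusted p under 0.05, among them Trp53inp1 (0.61, SE 0.16, adjusted p = 0.181). Immediate early genes had 0 calls of 18 by edgeR, DESeq2 and limma-voom with 7 lower at an unadjusted p under 0.05, such as Egr1 (-0.39, SE 0.12, adjusted p = 0.29). Imprinted genes had 0 calls of 28 by edgeR and 2 by DESeq2, 1 in each direction, with 4 higher and 3 lower at an unadjusted p under 0.05. Igf2, a growth factor gene, was at 30.1, 28.4 and 28.9 against 20.3, 18.8 and 18 CPM. Its groups did not overlap, and its change of -0.60 (SE 0.12) was not called (adjusted p = 0.0674). The unfolded protein response, with Hspa5 at 0.20 (SE 0.13, adjusted p = 0.495), had 0 of 20 at an unadjusted p under 0.05 and 0 calls by any of the 3 tools.

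The same contrast in clone 10, which shares no library with clone 4, was set beside these values in a fit of all 12 libraries. There 530 genes were higher (3.49%) and 111 lower (0.731%) in GFP-positive cells. Of the 53 genes called higher in clone 4, 52 had a positive change and 46 were called higher in clone 10, with a median change of 3.44 over the 53. All 43 rises over 1 on the log2 scale were among these, and 3 of the 10 smaller ones. Of the 97 genes called lower in clone 4, 93 had a negative change and 10 were called lower in clone 10, with a median change of -0.59 over the 97. Esr1 changed by 3.75 (SE 0.39) in clone 10, Zscan4c by 4.00 (SE 0.33), Bgn by -0.72 (SE 0.30) and Grem1 by -0.98 (SE 0.53).

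When the difference between the clones' changes was tested itself, edgeR gave 0 calls among 15179 genes (0%). The lowest adjusted p was 0.325, and 1167 genes had an unadjusted p under 0.05. There were 62 calls by DESeq2 and 1 by edgeR without clone 10 replicate 1. So no single change in clone 4 was shown by edgeR to differ from clone 10. Of the genes called in clone 4, 33 of the 97 lower and 6 of the 53 higher had an unadjusted p under 0.05 for the difference. Hist1h2bc changed by -1.19 in clone 4 and 0.68 in clone 10 (unadjusted p for the difference 4.28e-05), and Cenpf by 0.82 and -0.01 (0.000851). Grem1 differed by -2.02 (SE 0.72, unadjusted p 0.0216) and Ifit3 by -1.65 (SE 0.47, unadjusted p 0.00685). Each of these had an adjusted p over 0.3.

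**Figure D5:**
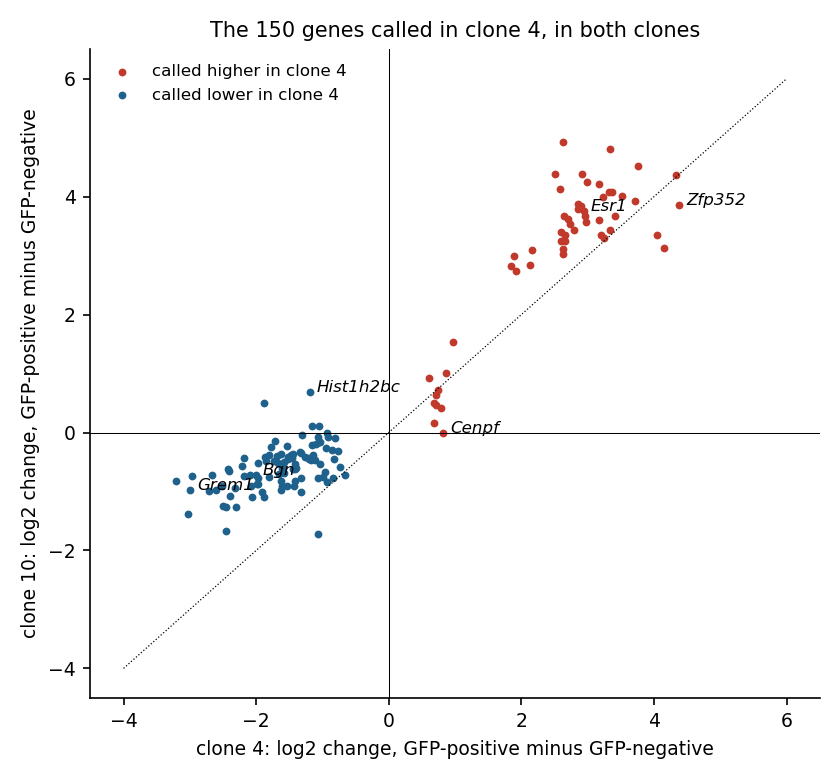
Each point is a gene called in clone 4, with its log2 change in clone 4 on the x axis and in clone 10 on the y axis, and the dotted line marks equal change. Genes called higher in clone 4 (red) have a median of 3.44 in clone 10, and genes called lower (blue) a median of -0.59, with 93 of 97 below 0.

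The authors' deposited table for clone 4 lists 8 of 13352 genes with an adjusted p under 0.05 (0.0599%). In the authors' deposited table Esr1 is the only one higher (1.57 on the authors' log2 scale), and Grem1 (-1.87), Prl2c3 (-1.65), Mnda (-1.45), Ifi204 (-1.44), Esm1 (-1.44), Tm4sf1 (-1.41) and Tagln (-1.24) are lower. All 8 were also called by the paired fit in the same direction, with changes of larger size on its own scale, such as 2.95 for Esr1 and -2.99 for Grem1. Esm1, an endothelial proteoglycan gene, fell from 1.64, 1.98 and 1.66 to 0.0481, 0.145 and 0.321 CPM (-3.21, SE 0.53, adjusted p = 0.0214), and is named because that table lists it. Its GFP-positive libraries were all under the level of the count filter, so it could be tested only as a fall.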

How the data were processed

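Total RNA was sequenced from TruSeq v2 libraries, per the labels. STAR 2.3.0e, HTSeq 0.6.0, DESeq2, DESeq and mm10 are named in the submitters' processing notes, while the strand setting is not given in the sources used here and overlapping or antisense genes therefore cannot be told apart. The deposited count table gives whole-number reads of each gene, not normalized by the authors. The authors' deposited comparison table gives, per the file headers, normalized signal for the libraries, log2 fold changes and standard errors, the score from dividing them, and p-values.

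The 6 clone 4 libraries were fitted with replicate number as a block by the robust quasi-likelihood F test of edgeR 4.0.16 (R 4.3.3), after TMM scaling and with Benjamini-Hochberg adjustment over all genes tested. Genes needed about 10 counts at the median library size in 3 libraries and 15 in total, which left 14504 of 22753. Of these 14504, 323 reached that level in all 3 libraries of the GFP-positive gate alone and 290 of the GFP-negative gate alone. For such genes the filter favours a higher level in the gate that reached it. The SE is the log2 change over the root of F. Pairing came from the labels' replicate numbers: deviations from group means correlated at 0.674, 0.827 and 0.851 for same-numbered libraries and at -0.574 to -0.268 for the others. Within a gate a gene's deviations cancel out, so the positive values force the others to be negative, and those add no support. The biological coefficient of variation was 0.139. Same-group libraries differed beyond sampling noise and none was merged. The difference between clones was an interaction term in 12 libraries with 6 pairs. DESeq2 1.42.0, limma 3.58.1 (voom), other scaling, other filters, no block and leaving out each pair were the alternatives. On simulated counts for this comparison (14504 genes), 96% of genes changed by 1 on the log2 scale and 100% of those changed by 2 were recovered, with 4 false calls. The changed genes were drawn only from those averaging over 2 CPM, with the same spread for all genes and pair effects fully shared by the gates. The real rises had a median of 1.09 CPM without GFP and were uneven across pairs. These figures therefore do not measure recovery or false calls in the real fit.

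The comparison, the 37 gene lists and the tests were chosen with earlier results of these data known. Named genes are, among calls averaging 1 or more in log2 CPM with 3 pairs in agreement, the 15 largest rises and falls and the 5 smallest p per direction, up to 4 members per list by p, and Sphk1, Sphk2, Esr1 and the receptors. Predicted names were passed over, and list members given only by a log2 change were chosen after their values were seen. Values of some single genes are not reported here.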

Additional observations from a re-analysis of the deposited data

How the results depend on the processing

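With no replicate block, 0 genes were called (0 higher, 0 lower), 0 for the difference between clones and 0 in each list. With all 12 libraries and the block, 18 were called (11 higher, 7 lower). By list, there were 5 two-cell-like genes, 2 fibroblast markers, 1 inhibitor or metalloproteinase gene, 2 annexin or S100 genes and 1 PYHIN gene. The estrogen list had 1 higher and 1 lower, and 0 contractile, interferon, class I, G2/M or BMP and TGF-beta genes were called. Lists share members, such as S100a4, and do not cover all calls. DESeq2 with the block called 279 (128 higher, 151 lower), with 7 interferon, 5 class I and 11 G2/M genes, and 62 for the difference between clones. The filter at 2 CPM left 27 genes called higher, 9 two-cell-like genes and 1 PYHIN gene, where 121 of the 150 were still tested and 104 kept. Leaving out a pair gave 217 to 836 calls (104 to 575 higher, 113 to 345 lower), with 5 to 11 contractile, 3 to 7 inhibitor or metalloproteinase, 3 to 7 annexin or S100, 4 to 8 interferon, 4 to 6 PYHIN, 2 to 9 class I, 1 to 20 G2/M, 3 to 4 lower estrogen-list and 5 to 7 BMP and TGF-beta genes called, and 0 to 1 for the difference between clones. Over the same settings Sphk1 ranged from -1.367 to -0.611 and Sphk2 from -0.022 to 0.622, turning negative without replicate 1. S1pr1 ranged from -0.299 to 0.342, positive without replicate 2, and S1pr4 from -0.662 to 0.037, positive without replicate 1. The cause of these shifts was not tested beyond the settings themselves. DESeq2 size factors (155 calls, all 150 kept), limma-voom (175, all 150 kept) and no filter (205, 140 kept) left the total within 1.5 times. Of the 61 called genes named by the rule, 51 missed the threshold with 12 libraries and all 61 without the block, 0 to 6 did so when a pair was left out, and none changed direction under any setting run. Genes under about 1 CPM rest on few reads, and their log2 changes depend on the fit's prior count.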
